A study of Mus musculus with 4 samples.

Results

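Glycolysis converts glucose to pyruvate in the cytosol through a fixed chain of enzymes, and lactate dehydrogenase then reduces pyruvate to lactate. Several steps can be catalysed by any of a few isozymes, which are products of separate genes. Tumour cells in culture are known for high flux through this chain, and many of its genes are known targets of the hypoxia-inducible factors and of MYC. The genes described here are 10 glycolytic enzymes of 18760 named genes on the array. HK1 and HK2 encode hexokinases, GPI glucose-6-phosphate isomerase, PFKL and PFKP phosphofructokinases and ALDOA aldolase. TPI1 encodes triosephosphate isomerase, PGK1 phosphoglycerate kinase, ENO1 enolase and LDHA lactate dehydrogenase. They were chosen by name, with earlier results of these data known. Every non-control probe with the name of a chosen gene was taken, which gave 21 of 41000 probes.

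RNA came from H460, an established human lung carcinoma line, grown in medium with 10% heat-inactivated serum and exposed for 4 h to 250 µM farnesol, an isoprenoid alcohol, or to its vehicle dimethyl sulphoxide. The organism label gives the mouse, against the human line named in the protocols and the human symbols of the probes. The design text describes duplicate experiments, called replicate 1 and replicate 2 here, in which a farnesol RNA was set against its matched vehicle RNA on 2 dye-swapped arrays, so the 4 arrays are n = 2. The measure throughout is the log2 ratio of farnesol over vehicle, where -1 is a 2-fold lower and 1 a 2-fold higher signal with farnesol.

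Per channel, 82.4% to 92.9% of probes were well above background by the scanner software's flag. Correlations were taken across the tested features, with the brightest probe standing for each gene. The log2 ratios of the dye-swapped arrays correlated at r = 0.94 in either replicate, and arrays of different replicates at 0.63 to 0.68. That flag was set in all vehicle channels for all 6 epithelial markers looked up, but also for all 15 markers of leukocytes, fibroblasts and endothelium, so it did not tell cell types apart. All 21 probes of the glycolytic enzymes passed the filter on dim probes and none was saturated.

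With farnesol, 7 of the 10 enzymes gave a lower signal on all 4 arrays, namely HK1, GPI, PFKP, TPI1, PGK1, ENO1 and LDHA. Their mean log2 ratios lay between -0.31 for GPI and -0.67 for LDHA. PFKL was higher on all 4 arrays (not with each array centred on its median in place of loess), and HK2 and ALDOA had no common direction. No enzyme passed limma's moderated test after Benjamini-Hochberg adjustment over all features (adjusted p between 0.20 for ENO1 and 0.98 for HK2).

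The array as a whole gives the scale for these counts, but the enzymes were chosen with earlier results of these data known. The shares beside the counts are therefore no test of these enzymes as a group. At an adjusted p under 0.05, limma called 3 of 28598 features, or 0.0105%, and 0 of the 10 enzymes. At an unadjusted p under 0.05, 6 enzymes were lower, against 10.8% of all features, and 0 were higher, against 3.71%. Among the brightest 10% of features, 19.8% were lower at that p. Of all features, 21.8% were lower on all 4 arrays and 20.9% were higher on all 4 arrays. The 7 enzymes in the brightest 10% of features were GPI, PFKL, ALDOA, TPI1, PGK1, ENO1 and LDHA. Of these, 5 were lower on all 4 arrays, against 34.3% of features that bright, and 5 were lower at an unadjusted p under 0.05. No enzyme was at least 1.5-fold lower in both replicates, as 1.43% of features were. The median log2 ratio of the 10 enzymes was -0.36, and that of all features was 0.01. The enzymes' median was -0.30 in replicate 1 and -0.45 in replicate 2, where all features stood at 0.01 in either.

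**Figure D1:**
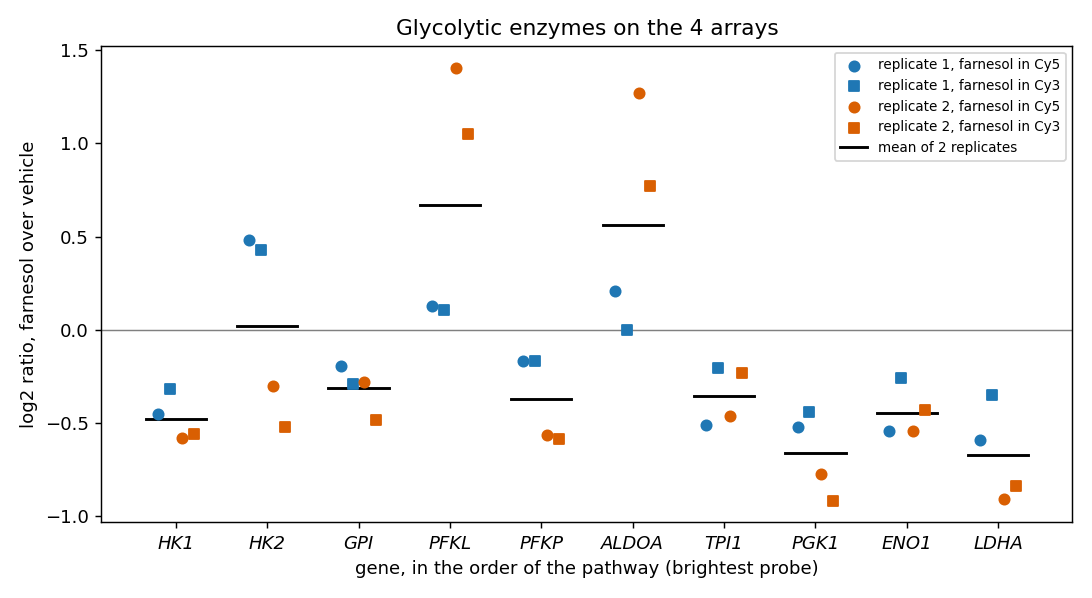
Log2 ratio of farnesol over vehicle (vertical axis) for the brightest probe of each of the 10 enzymes, in pathway order (horizontal axis). Points are the 4 arrays, coloured by replicate and shaped by dye, and bars are the means of the 2 replicates; 7 enzymes have all points below 0, PFKL has all above 0 (not with median centring), and HK2 lies above 0 in replicate 1 and below 0 in replicate 2.

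The hexokinases trap glucose in the cell by phosphorylating it. For HK1, the isozyme known as the housekeeping form, the log2 ratios were -0.45 and -0.32 on the arrays of replicate 1 and -0.58 and -0.56 on those of replicate 2. All lay below 0, and both arrays of replicate 2 were lower than those of replicate 1. The mean was -0.48 ± 0.13 (SD, n = 2), a 1.39-fold lower signal (limma adjusted p = 0.22). The vehicle channel of this probe stood at a normalized log2 brightness of 8.85 in replicate 1 and 8.59 in replicate 2, and the farnesol channel at 8.46 and 8.03. A dimmer HK1 probe, above background on 3 of the 4 arrays in either condition, differed in sign, at 0.09 in replicate 1 and 0.08 in replicate 2.

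HK2, the isozyme known for its induction in tumours, gave 0.48 and 0.43 on the arrays of replicate 1 and -0.30 and -0.52 on those of replicate 2. The replicates therefore stood on opposite sides of 0, and the dye-swapped arrays of either replicate had a common sign. The mean was 0.02 ± 0.61 (SD, n = 2; limma adjusted p = 0.98), and it was -0.16 with median centring. Another HK2 probe had the opposite signs, at -0.16 in replicate 1 and 0.15 in replicate 2, and the third was at 0.12 and 0.00. The HK2 probes therefore disagreed in direction within the replicates. The log2 ratio of HK1 was below that of HK2 by 0.84 in replicate 1 and by 0.16 in replicate 2. The difference between the isozymes was not tested.

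GPI interconverts glucose 6-phosphate and fructose 6-phosphate, and a single probe measured it. Its log2 ratios were -0.19 and -0.29 in replicate 1 and -0.28 and -0.48 in replicate 2. All 4 were below 0 and the values of the replicates overlapped. The mean was -0.31 ± 0.10 (SD, n = 2; limma adjusted p = 0.27), the smallest shift among the 7 enzymes that were lower throughout.

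Phosphofructokinase commits fructose 6-phosphate to glycolysis, and its liver-type (PFKL) and platelet-type (PFKP) subunits had mean ratios of opposite sign. PFKP, with a single probe, gave -0.17 and -0.17 in replicate 1 and -0.56 and -0.59 in replicate 2. Every array was below 0, and the size in replicate 2 was over 3 times that in replicate 1. The mean was -0.37 ± 0.29 (SD, n = 2; limma adjusted p = 0.40).

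PFKL gave 0.13 and 0.10 in replicate 1 but 1.41 and 1.05 in replicate 2. Nearly all of its mean of 0.67 ± 0.79 (SD, n = 2; limma adjusted p = 0.50) therefore came from replicate 2. Its vehicle channel stood at 11.63 and 11.46 in the replicates and its farnesol channel at 11.74 and 12.69, so the farnesol channel of replicate 2 was the one that stood apart. The dimmer PFKL probe gave -0.04 in replicate 1 and 0.17 in replicate 2. PFKL exceeded PFKP by 0.28 in replicate 1 and by 1.81 in replicate 2, a mean difference of 1.04 ± 1.08 on the log2 scale that was not tested either. With each array centred on its median in place of loess, PFKL stood at -0.04 in replicate 1 and 0.94 in replicate 2.

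**Figure D2:**
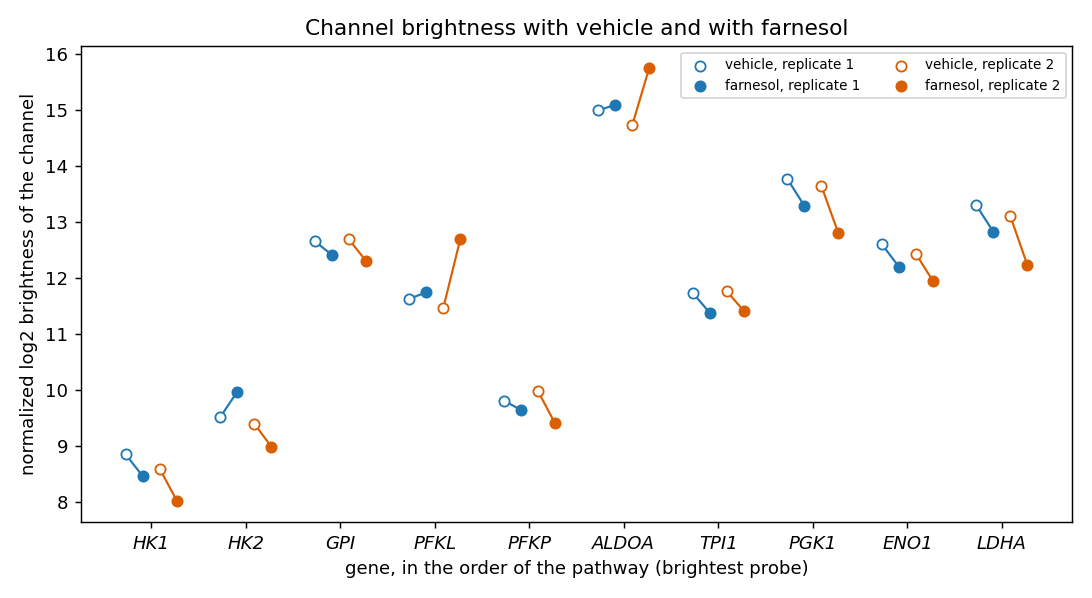
Normalized log2 brightness of the vehicle channel (open points) and the farnesol channel (filled points) for the brightest probe of each enzyme, in replicate 1 (blue) and replicate 2 (orange), each the mean of 2 dye-swapped arrays. Lines join the channels of a replicate; they slope down in both replicates for 7 enzymes, and the steepest rises are those of PFKL (11.46 to 12.69) and ALDOA (14.73 to 15.75) in replicate 2. Heights of different probes are not comparable.

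Aldolase splits fructose 1,6-bisphosphate into triose phosphates. The brightest ALDOA probe, A_24_P921584, gave 0.21 and 0.00 in replicate 1 and 1.27 and 0.77 in replicate 2. Its mean was 0.56 ± 0.65 (SD, n = 2; limma adjusted p = 0.50). The other ALDOA probe, A_23_P88963, gave -0.30 and -0.40 in replicate 1 and -0.38 and -0.38 in replicate 2. That probe was below 0 on every array with a mean of -0.37 ± 0.02, and the array files assign it to another transcript record of the gene. The direction of ALDOA thus depended on the probe, and the probes were nearest in replicate 1. Records also differ between the TPI1 probes and between the HK2 probes of opposite sign. The HK1 probes share 1 record, as do the PFKL probes, and a role of the record was not tested.

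Triosephosphate isomerase interconverts the products of aldolase, and its probes were also at odds. The brightest TPI1 probe, A_32_P95739, gave -0.51 and -0.20 in replicate 1 and -0.46 and -0.23 in replicate 2. The replicate means of -0.36 and -0.35 were nearly equal, and the spread between dyes was larger than that between replicates. The mean was -0.35 ± 0.01 (SD, n = 2; limma adjusted p = 0.21). The other TPI1 probe, A_23_P53546, gave -0.42 and -0.53 in replicate 1 and 1.13 and 0.83 in replicate 2. It had the direction of the brightest probe in replicate 1 and the opposite one in replicate 2, for a mean of 0.25 ± 1.03.

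Among the 21 glycolytic probes, 3 were picked out because they were at least 0.92 higher on the log2 scale in replicate 2 than in replicate 1. They were single probes of PFKL, ALDOA and TPI1, higher by 1.11, 0.92 and 1.45, while the other probe of the same gene moved by 0.21, -0.03 and 0.01. Not all discordant probes behaved so. Of the HK2 probes with opposite signs, the brightest moved by -0.86 and the other by 0.31. Of the 37347 probes that passed the filter, 327 (0.876%) had a difference of 0.92 or more in that direction. This cut is the smallest of the 3 differences, so the share is no test of them. The median absolute difference between replicates was 0.11 over all probes and 0.21 over the 21 glycolytic probes. With the scanner software's own processed signals, which are dye-normalized too, the 3 probes stood between 0.98 (ALDOA) and 1.30 (PFKL) in replicate 2. With median centring in place of loess they stood lower there, at 0.94 (PFKL), 0.84 (ALDOA) and 0.68 (TPI1). The values as reported were 1.23, 1.02 and 0.98, and a role of the normalization was not tested.

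**Figure D3:**
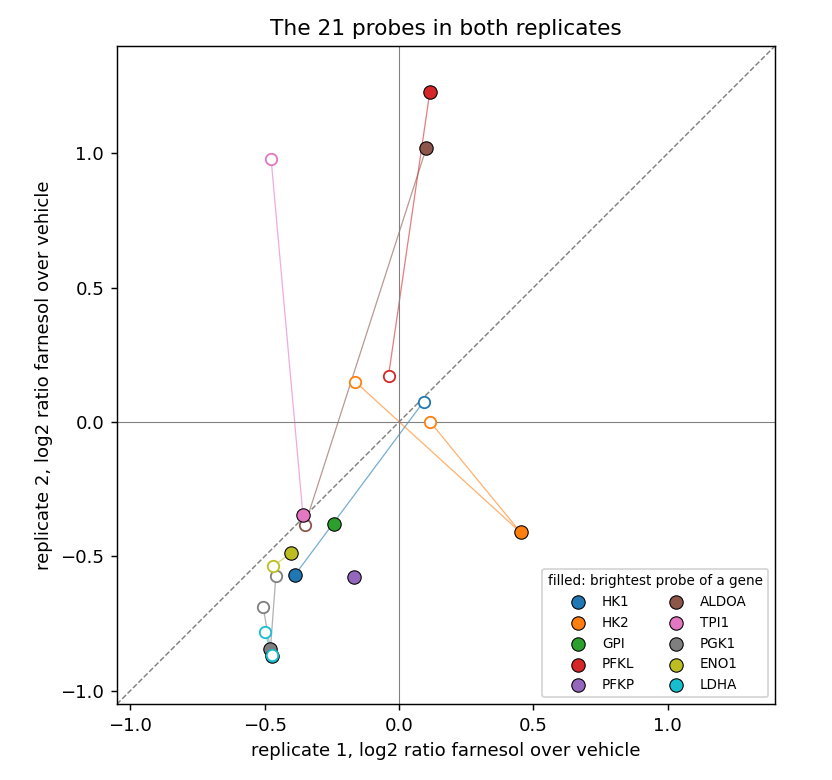
Log2 ratio of farnesol over vehicle in replicate 1 (horizontal axis) and replicate 2 (vertical axis) for all 21 probes of the 10 enzymes. Filled points are the brightest probe of a gene, open points its other probes, lines join probes of a gene, and the dashed line marks equal values; PGK1, ENO1 and LDHA probes cluster below 0 on both axes, and single probes of PFKL, ALDOA and TPI1 lie 0.92 to 1.45 above the dashed line.

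Phosphoglycerate kinase makes ATP in the lower part of the chain. The brightest PGK1 probe gave -0.52 and -0.44 in replicate 1 and -0.77 and -0.92 in replicate 2. All arrays were below 0 and both of replicate 2 were the lower. The mean was -0.66 ± 0.26 (SD, n = 2), a 1.58-fold lower signal (limma adjusted p = 0.23). The other PGK1 probes were at -0.60 ± 0.13 and -0.52 ± 0.08 and below 0 on all 4 arrays, so the direction did not depend on the probe.

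Enolase forms phosphoenolpyruvate. The brightest ENO1 probe gave -0.54 and -0.26 in replicate 1 and -0.54 and -0.43 in replicate 2. The replicates overlapped, and in either of them the array with farnesol in Cy5 was the lower. The mean was -0.44 ± 0.06 (SD, n = 2), a 1.36-fold lower signal, with the smallest adjusted p among the 10 enzymes (limma, 0.20). The other ENO1 probe showed a wider gap between dyes, with -0.80 and -0.76 where farnesol was in Cy5 and -0.13 and -0.31 where it was in Cy3. Its mean was -0.50 ± 0.05.

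LDHA, the lactate dehydrogenase subunit known for its role in the lactate output of tumour cells, gave -0.59 and -0.35 in replicate 1 and -0.91 and -0.84 in replicate 2. The arrays of replicate 2 were both below those of replicate 1. The mean of -0.67 ± 0.28 (SD, n = 2) was a 1.59-fold lower signal (limma adjusted p = 0.24). Only 1.57% of features had a mean as low or lower. The other LDHA probes were at -0.67 ± 0.28 and -0.64 ± 0.20, so the 3 probes of the gene were close in both replicates.

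Over all 21 probes, 13 were lower on all 4 arrays, 2 were higher (the dim HK1 probe and the bright PFKL probe) and 6 were neither. Of all probes that passed the filter, 22.5% were lower on all 4 arrays. The share of higher probes was not counted, and of all features 20.9% were higher. The dim HK1 probe was at only 0.07 to 0.09 on the 4 arrays, and 7.09% of the probes that passed were as dim or dimmer. Probes of 1 gene share their RNA and are no replicates of the treatment. The order of the mean log2 ratios from lowest to highest was LDHA, PGK1, HK1, ENO1, PFKP, TPI1, GPI, HK2, ALDOA and PFKL. Throughout this order, neighbours differed by less than the larger of their SDs. The SD between replicates was below the median SD of all features (0.08) for TPI1 and ENO1 and above it for the other 8 enzymes.

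The authors' deposited table lists 7018 probes with a p-value of 0.001 or less and gives values of replicate 1 only. It holds 11 of the glycolytic probes. In the authors' deposited table the LDHA probes stood at -0.44, -0.45 and -0.49 and the PGK1 probes at -0.46, -0.52 and -0.48, as log2 of the listed ratio. HK1 stood at -0.43 and HK2 at 0.51 and -0.25 in the authors' deposited table, the HK2 values being those of different probes. The remaining entries of the authors' deposited table were the ALDOA probe A_23_P88963 at -0.32 and the TPI1 probe A_23_P53546 at -0.50. No probe of GPI, PFKL, PFKP or ENO1 was among those 7018.

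Genes around the chain were read from 8 lists of 103 genes, also chosen with earlier results of these data known. Of these genes, 99 were on the array by name and 97 were tested. None passed an adjusted p of 0.05, and where a gene is called lower or higher below, that is its direction on all 4 arrays. By that rule 21.8% of all features were lower and 20.9% higher. Of the 2860 brightest features, 981 were lower and 886 higher. The counts of each list are to be read beside both, since the lists were not matched for brightness. Among 19 other glycolytic enzymes and isozymes, 5 were lower, 2 were higher and the median log2 ratio was 0.00. PGAM1, the phosphoglycerate mutase between PGK1 and ENO1, lay between -1.17 and -0.998 on the 4 arrays. Its mean of -1.06 ± 0.03 (SD, n = 2; limma adjusted p = 0.19) was below that of each of the 10 enzymes, and it was at least 2-fold lower in both replicates, as 0.238% of features were.

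The other lower genes of that list included the muscle-type phosphofructokinase PFKM (-0.51 ± 0.37) and the second lactate dehydrogenase subunit LDHB (-0.36 ± 0.28). Pyruvate kinase, printed on the array as PKM2, was lower too (-0.32 ± 0.17), and its other probes were at -0.37 ± 0.11 and -0.09 ± 0.17. HK3 (0.11 ± 0.10, and -0.01 by its other probe) and PGAM2 (0.05 ± 0.03) were higher by small amounts. Glyceraldehyde-3-phosphate dehydrogenase, on the array as GAPD, was not lower on every array and had a mean of -0.11 ± 0.01.

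Enzymes that set fructose 2,6-bisphosphate, the activator of phosphofructokinase, had no gene with a common direction among 5. Of 12 tested glucose and lactate transporters and their chaperone, 2 were lower, 3 were higher and the median was 0.00. The main glucose transporter of many tumour lines, SLC2A1, was at -0.23 ± 0.13 and the lactate exporter SLC16A3 at -0.21 ± 0.05. SLC2A14 (0.25 ± 0.19), SLC2A10 (0.12 ± 0.02) and SLC2A3 (0.03 ± 0.02, and -0.03 by its other probe) were higher.

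Of 13 tested genes for the entry of pyruvate into the mitochondrion, 5 were lower and 2 higher, with a median of -0.05. The lower ones included PDHA1 (-0.58 ± 0.17; limma adjusted p = 0.21) and DLD (-0.56 ± 0.57), subunits of pyruvate dehydrogenase, and BRP44L (-0.29 ± 0.15), the older name of a mitochondrial pyruvate carrier subunit. PDK4, a kinase that inhibits pyruvate dehydrogenase, was at 0.42 ± 0.40. DLAT, another subunit, was at 0.35 ± 0.33 by its brightest probe and at -0.37 and -0.52 by its other probes.

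In the pentose phosphate pathway, which branches off at glucose 6-phosphate, 6 of 9 genes were lower and 2 were higher, with a median of -0.13. Transaldolase, TALDO1, was at -0.49 ± 0.23 with its other probes between -0.49 and -0.39. RPIA (-0.46 ± 0.25), a ribose phosphate isomerase, and PGD (-0.43 ± 0.37), the phosphogluconate dehydrogenase, were also lower. H6PD, the dehydrogenase of the endoplasmic reticulum, was at 0.24 ± 0.08 and TKTL1 at 0.08 ± 0.02.

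Of 15 tested genes of gluconeogenesis and glycogen, 7 were lower and 1 higher, with a median of -0.05. UGP2, which makes the glucose donor for glycogen, was at -0.64 ± 0.33. The glycogen phosphorylases PYGB (-0.43 ± 0.27, and 0.00 by its other probe) and PYGL (-0.38 ± 0.38) were lower and PYGM was at 0.08 ± 0.03. In the serine branch, which starts from the product of PGK1, 3 of 5 genes were lower and 0 higher, with a median of -0.26. Replicate 1 alone gave -0.05 and replicate 2 alone -0.59, and 2 genes were higher on both arrays of replicate 1, as were 37.3% of all features. PSAT1, the phosphoserine aminotransferase, was at -1.21 ± 0.14 (limma adjusted p = 0.19) and at least 2-fold lower in both replicates. SHMT1 was at -0.47 ± 0.17 by its brightest probe and at -0.16 and 0.03 by the others, and PHGDH at -0.26 ± 0.30.

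Of 19 tested genes of the hypoxia-inducible factors, their regulators and their targets outside glycolysis, 7 were lower and 5 higher, with a median of -0.07. P4HA2 (-0.62 ± 0.06, and -0.29 by its other probe), a prolyl hydroxylase of collagen, CA12 (-0.57 ± 0.09, and -0.52 to -0.04 by its others), a carbonic anhydrase, and the mitochondrial protein gene BNIP3 (-0.29 ± 0.15) were lower. The peptide hormone gene ADM (2.44 ± 0.76), DDIT4 (2.10 ± 1.23), an inhibitor of mTOR signalling, and VEGF (0.58 ± 0.26, and 0.19 to 1.02 by its other probes), a growth factor of blood vessels, were higher. The difference was at least 1.5-fold in both replicates for ADM and DDIT4, as for 1.25% of features. Both genes were also at least 2-fold higher in both replicates, as were 187 of 28598 features. HIF1A itself gave 0.45 in replicate 1 and -0.31 in replicate 2.

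**Figure D4:**
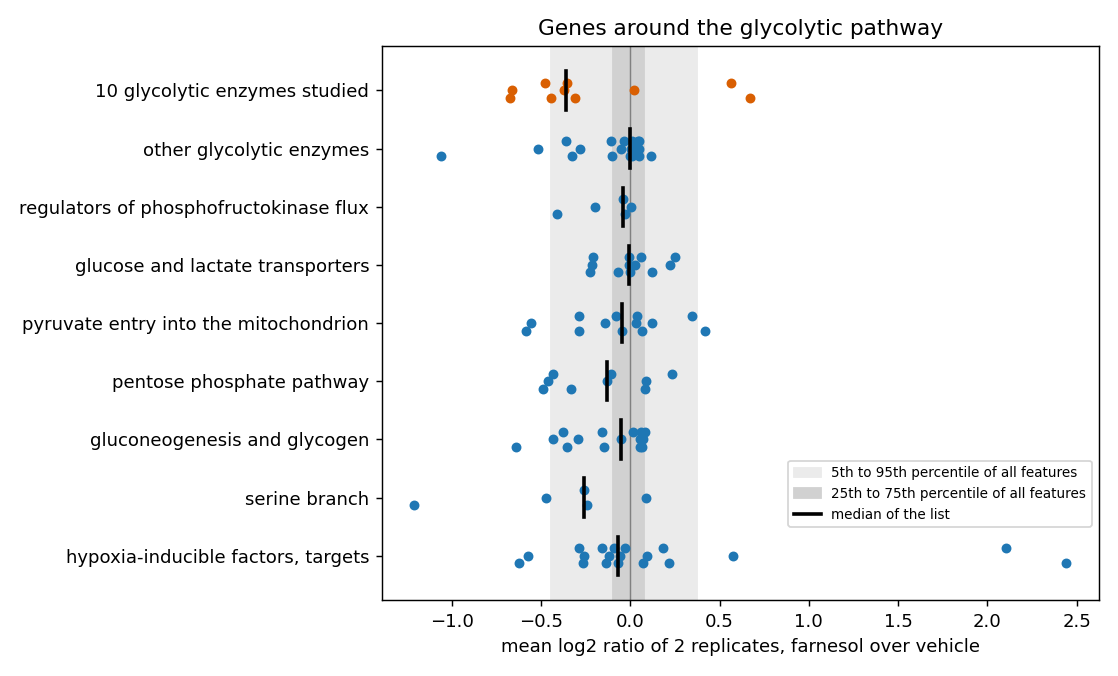
Mean log2 ratio of 2 replicates, farnesol over vehicle (horizontal axis), for each tested gene (points) of the 10 enzymes and of 8 lists around the pathway (rows). Black ticks are list medians, and the grey bands give the 5th to 95th (-0.45 to 0.37) and 25th to 75th (-0.10 to 0.08) percentiles of all features; the median of the 10 enzymes is -0.36 and those of the lists run from -0.26 for the serine branch to 0.00.

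The enzymes' median also moved with the normalization. With each array centred on its median in place of loess, their median was -0.57, while the brightest 10% of features stood at -0.24 and all features at -0.01. Under that setting 25.6% of features were lower on all 4 arrays and 15.1% higher, and 46.9% of the brightest 10% were lower. The means of HK1, GPI, PFKP, TPI1, PGK1, ENO1 and LDHA were again below 0. Higher on all 4 arrays were then 0 genes of the pyruvate, pentose phosphate and glycogen lists, 1 transporter and 3 genes of the hypoxia-inducible factor list. Lower on all 4 arrays were 8 other glycolytic enzymes, 5 transporters and 2 regulators of phosphofructokinase. The list medians were then -0.24 for the pentose phosphate pathway, -0.21 for gluconeogenesis and glycogen, -0.21 for the phosphofructokinase regulators, -0.47 for the serine branch, -0.07 for the transporters, -0.10 for pyruvate entry, -0.10 for the hypoxia-inducible factor list and -0.03 for the other glycolytic enzymes. With the 4 arrays as units and the replicate as a random block, limma called HK1 (adjusted p = 0.013), PGK1 (0.014), LDHA (0.021) and ENO1 (0.043), but also 2893 of all features.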

How the data were processed

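The scans were processed in Agilent Feature Extraction 8.1.1.1, per the file headers. Deposited intensity values used here are each spot's mean signal and local background median by channel, without correction. Processed intensity values and the log10 ratio of Cy5 over Cy3 were deposited too, background-subtracted and dye-normalized per the file headers. Other deposited columns are flags. The authors' deposited table gives a linear ratio and a p-value per probe. Its header names the ratio as farnesol over vehicle, its copies are identical, and its log2 ratio correlated with the scanner software's replicate 1 log ratio at r = 0.99987 (0.83213 with replicate 2), which bears on the direction used.

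Software was R 4.3.3, limma 3.58.1, data.table (version 1.17.8) and, for figures, matplotlib 3.10.9. In limma, normexp (offset 50) corrected the background, which shrinks the ratios of dim probes. Loess was fitted within arrays with controls and 62 outlying spots at weight 0. Arrays with farnesol in Cy3 had their sign turned, spots of a probe and then the arrays of a replicate were averaged, and the brightest probe stood for a gene. A probe was tested where 1 condition's channel was well above background on at least 1 array of each replicate, which left 28598 features (17872 named). The mean of the replicates (n = 2) was tested against 0 with limma's moderated test (two-sided; Benjamini-Hochberg adjustment over all features; 1 residual degree of freedom, plus 1.81 from moderation). A run on simulated data, with changes planted in 200 features, served as a check of the code only.

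The 10 enzymes and the lists were chosen with earlier results of these data known. From each list, up to 3 lower and 3 higher genes of common sign on all 4 arrays were named by size. PKM2, GAPD, HIF1A and other probes of named genes were added after their values were seen, and the older symbol GAPD was matched only after reading the array's annotation. No name matched HKDC1, PGAM4, MPC2 or ANKRD37, and SLC2A12 and FBP2 did not pass the filter. Alternatives covered background, normalization, probe choice, filter, dye, model and each replicate. Symbols follow the array's annotation and can be old, and no human genome or probe sequence was used here.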

Additional observations from a re-analysis of the deposited data

How the results depend on the processing

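HK1, GPI, PFKP, TPI1, PGK1, ENO1 and LDHA stayed below 0 and PFKL and ALDOA above 0 in all 12 alternatives. Only the averaging of probes used more than the brightest probe of a gene, so the alternatives are not independent. The other ALDOA probe was below 0 on all 4 arrays, and PFKL was at -0.04 in replicate 1 with median centring. Averaging all probes of a gene brought TPI1 to -0.05, HK1 to -0.20, ALDOA to 0.10 and PFKL to 0.37. Then 6 enzymes were lower on all 4 arrays, as were 22.2% of all features. HK2 turned negative with median centring (-0.16), with the arrays that had farnesol in Cy3 alone (-0.047) and without replicate 1 (-0.41), and was 0.45 without replicate 2. The enzymes' median was -0.57 with median centring and -0.25 when probes were averaged. The count of enzymes higher on all 4 arrays was 2 with the scanner software's processed signals, where 21.6% of all features were. It was 0 with median centring (15.1% of all features) and 0 when probes were averaged (20.4%). Where only 2 arrays were left, the rule asked for both of them. The count was then 2 with the Cy5 arrays alone (33.4% of all features), 2 without replicate 1 (41.2%) and 2 without replicate 2 (37.3%). At least 1.5-fold lower were 2 with median centring and 1 with the Cy5 arrays alone, and 0 to 2 without a replicate. The share of all features at that fold was not counted under these settings. Enzymes past an adjusted p of 0.05 numbered 4 with the 4 arrays as units and the replicate as a random block (consensus correlation 0.55), an alternative added after seeing the data, since its planned form with a dye term could not be estimated from 4 arrays. This model counts dye-swapped arrays as partly independent. The cause of the other changes was not tested. Features called by limma numbered 3 as reported, 65 with an offset of 0, 60 with processed signals, 25 with median centring, 5 with the Cy5 and 15 with the Cy3 arrays alone, and 2893 with the block. With scaling between arrays limma called 0, and 3151 were lower and 970 higher at an unadjusted p under 0.05. Each ratio already sets a farnesol RNA against its matched vehicle RNA, so the test of the ratios against 0 is itself paired. The 4 arrays and 2 replicates limit the precision.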
